A study of Mus musculus with 2 samples.

Results

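The hepatocyte identity transcription factors examined here are 9 genes: Hnf4a, Cebpa, Cebpb, Foxa1, Foxa2, Foxa3, Onecut1, Nr5a2 and Prox1. They were chosen by name, as the rows of 2 expression tables that carry these gene symbols, and all 9 were found among 37146 gene identifiers. Each symbol belonged to 1 identifier, and all 9 passed the filter on low values, a mean over the libraries of 1 FPKM or more, which kept 10544 genes. The tables come from RNA-seq of the liver of CD-1 mice, an outbred laboratory strain. The NP group was given a titanium dioxide nanoparticle suspension by mouth at 50 mg per kg body weight per day, stirred with ultrasound for 30 min beforehand. The Control group was given phosphate-buffered saline in the same volume. Each group has 1 library, and the sex and age of the mice, the length of treatment and the number of mice behind a library are not stated in the labels.

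Hepatocytes keep their character through a small set of DNA-binding proteins that bind the regulatory regions of liver genes together and also bind the promoters of one another. HNF4A is a nuclear receptor needed for the expression of a large part of the hepatocyte's genes, C/EBP proteins are leucine zipper factors of metabolism and the acute phase response, and FOXA proteins are forkhead factors that can open compacted chromatin. Onecut1 encodes HNF6, a cut and homeodomain factor, Nr5a2 encodes LRH-1, a nuclear receptor of bile acid and cholesterol genes, and Prox1 encodes a homeodomain protein that acts largely as a co-repressor of HNF4A and LRH-1.

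Levels are FPKM (fragments mapped, scaled by row length and library size), summed over all rows of a gene, so that genes can be compared per length. The range after a value is the 95% interval that the authors' deposited tables give for 1 library, with the half-widths of a gene's rows combined in quadrature. Spread between mice is not part of it. With 1 library per group there is no test and no replicate check, so every difference below is a difference between these libraries. Total fragment numbers were not used here. Coverage divided by FPKM came to 2.93 in NP and 2.29 in Control, so NP was covered 1.28 times as deeply. In bulk liver, fewer cells of a type and less RNA per cell cannot be told apart.

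Several of these genes have more than 1 start site in the annotation behind the tables, and sequences before some of those starts are shown first. The transcript results below compare rows by their starts and did not use these sequences. They are RefSeq promoter windows of the C57BL/6J reference, build GRCm38.p6, with 250 bases before and 50 after a start, and they were not read from the CD-1 mice. All 9 genes matched, with 14 windows. Capitals mark matches, on either strand, to 5 motifs: TGTTTAC for forkhead factors, TTGCNNAA for C/EBP, CAAAGTCCA for HNF4, CAAGGTCA for LRH-1 and ATCAATAA for ONECUT factors. Hnf4a has an adult liver promoter, P1, and a distant promoter, P2, which is known from embryonic liver and pancreas. Both windows are on the plus strand, P1 at chr2:163546905-163547204 and P2 at chr2:163506607-163506906. The Hnf4a row ENSMUST00000051130.6, described below, had no window.
Hnf4a P1: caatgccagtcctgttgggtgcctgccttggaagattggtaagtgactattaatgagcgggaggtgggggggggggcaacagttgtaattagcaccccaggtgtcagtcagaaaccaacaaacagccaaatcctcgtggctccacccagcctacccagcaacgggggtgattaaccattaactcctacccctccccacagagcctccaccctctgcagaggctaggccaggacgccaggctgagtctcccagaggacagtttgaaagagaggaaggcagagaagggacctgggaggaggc
Hnf4a P2: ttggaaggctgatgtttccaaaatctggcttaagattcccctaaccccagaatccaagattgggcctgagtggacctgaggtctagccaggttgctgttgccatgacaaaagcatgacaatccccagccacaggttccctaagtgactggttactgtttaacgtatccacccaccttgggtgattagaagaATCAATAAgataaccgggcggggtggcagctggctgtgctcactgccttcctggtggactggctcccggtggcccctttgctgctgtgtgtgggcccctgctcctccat
The P1 window held none of the 5 motifs. The P2 window held the ONECUT motif, with its first base at position -59, and 0.719% of 32817 windows of all genes held it. The motif matches did not overlap one another.

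The Foxa2 windows belong to the starts of the rows that carried FPKM in the tables, both on the minus strand, the upstream one at chr2:148046920-148047219 and the downstream one at chr2:148045899-148046198. For Nr5a2 the window of the upstream row is shown, on the minus strand at chr1:136960399-136960698.
Foxa2 upstream start: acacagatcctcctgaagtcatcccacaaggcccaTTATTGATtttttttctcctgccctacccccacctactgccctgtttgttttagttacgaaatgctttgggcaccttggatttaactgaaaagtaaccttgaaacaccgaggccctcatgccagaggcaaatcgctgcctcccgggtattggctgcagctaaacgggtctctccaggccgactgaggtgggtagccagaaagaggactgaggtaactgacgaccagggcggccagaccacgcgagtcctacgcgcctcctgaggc
Foxa2 downstream start: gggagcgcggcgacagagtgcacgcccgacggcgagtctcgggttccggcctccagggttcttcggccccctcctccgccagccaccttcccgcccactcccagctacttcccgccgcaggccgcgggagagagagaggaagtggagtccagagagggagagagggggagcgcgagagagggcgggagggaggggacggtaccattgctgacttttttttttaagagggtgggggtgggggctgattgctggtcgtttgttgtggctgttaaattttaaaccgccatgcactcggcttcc
Nr5a2 upstream start: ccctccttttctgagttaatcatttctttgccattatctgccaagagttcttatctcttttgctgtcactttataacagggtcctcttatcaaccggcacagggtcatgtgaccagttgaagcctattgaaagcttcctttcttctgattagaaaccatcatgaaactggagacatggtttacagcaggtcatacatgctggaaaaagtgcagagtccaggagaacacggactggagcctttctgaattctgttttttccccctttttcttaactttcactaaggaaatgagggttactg
The upstream Foxa2 window held an ONECUT match, with its first base at position -215, while neither the downstream Foxa2 window nor the Nr5a2 window shown held any of the 5 motifs. Over all 14 windows, 10 held none. The forkhead motif was in the Foxa1 window alone and in 3.65% of all windows. The C/EBP motif was in 1 window of Nr5a2 not shown here and in 10.8% of all windows. That Nr5a2 window, at chr1:136953581-136953880 on the minus strand, lies downstream of the one shown. No row was linked to it. Its start, at chr1:136953630, lies downstream of chr1:136960448, the start of the window shown. In mm9 the starts of the 2 Nr5a2 rows described below lie 6797 bases apart, close to the distance between these windows. By distance the window thus lies near the start of the downstream row, though a direct link across builds was not tested. The HNF4 and LRH-1 motifs, in 0.475% and 1.56% of all windows, were in 0 of the 14.

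Across the 9 genes the direction was mixed, and by plain FPKM the ratio of Cebpb alone, at 1.51, was past 1.5-fold. On the scale of log2((NP + 1)/(Control + 1)), which understates the ratios of low genes, 0 of the 9 genes were higher in NP by 1.5-fold or more and 0 were lower by as much, against 3.59% and 5.33% of all genes kept. Ratios ran from -0.39 for Prox1 to 0.58 for Cebpb, 5 above 0 and 4 below, with a median of 0.12 beside -0.03 over all genes kept. The NP interval was entirely above the Control interval for 4 genes (Hnf4a, Cebpb, Foxa2 and Foxa3) and entirely below for 2 (Cebpa and Prox1), and the intervals of Foxa1, Onecut1 and Nr5a2 overlapped. Over all genes kept, the NP interval lay above for 7.72% and below for 9.58%. Abundant genes have narrow intervals: above a mean of 50 FPKM these shares were 19.2% and 14.9%, and between 5 and 50 FPKM they were 7.06% and 9.96%. Hnf4a, Cebpa and Cebpb belong to the first range, and Foxa1, Foxa2, Foxa3, Nr5a2 and Prox1 to the second.

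**Figure D1:**
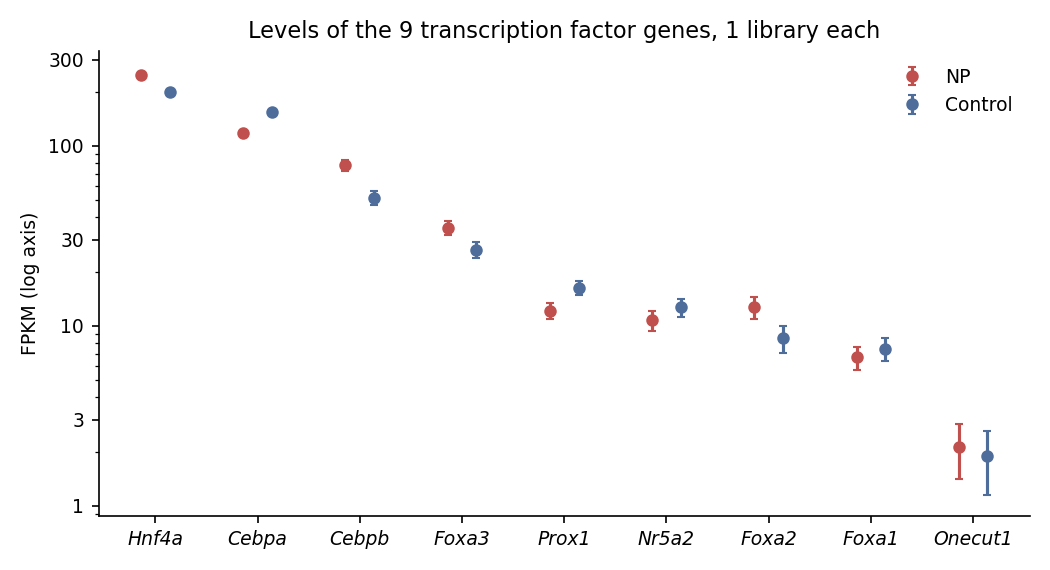
Level of each gene in FPKM (log axis) in the NP library (left point of a pair) and the Control library (right point), 1 library each, with the 95% interval of the estimate within the library. Hnf4a was the highest and Onecut1 the lowest in both, at 248 and 2.13 FPKM in NP and 200.1 and 1.88 FPKM in Control.

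**Figure D2:**
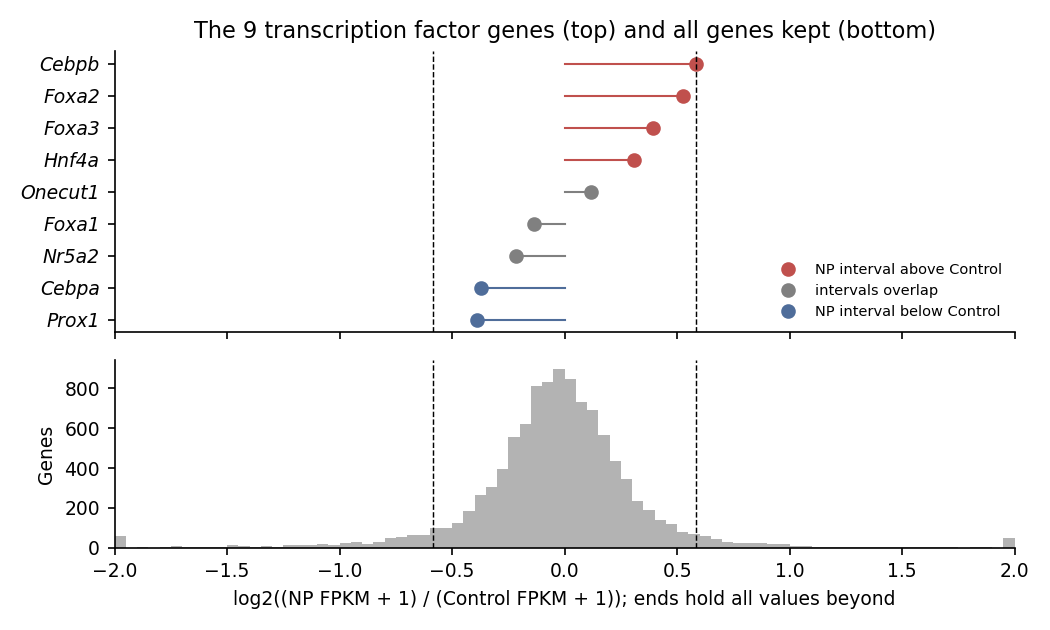
Ratio of the NP to the Control library on the log2(FPKM + 1) scale for the 9 genes (top, coloured by whether the intervals overlap) and for the 10544 genes kept (bottom, number of genes per bin). Dashed lines mark 1.5-fold, and all 9 genes lie between them, Cebpb at the upper line.

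Hnf4a was the most abundant of the 9 genes in both libraries and was higher in NP. It was at 248 FPKM (239 to 257) in NP and 200.1 FPKM (192 to 208) in Control, a ratio of 1.24, and stood above 97.0% of the genes kept in NP and 96.3% in Control. In the mm9 build of the files it spans chr2:163332544-163398646, and 2 of its 7 transcript rows carried all of its FPKM. The row that starts at P1, ENSMUST00000018094.6, was at 160 FPKM (152 to 168) in NP and 134 FPKM (127 to 140) in Control. A row whose annotated start lies 10169 bases upstream of that one, ENSMUST00000051130.6, was at 88.0 FPKM (83.1 to 92.9) in NP and 66.5 FPKM (62.4 to 70.6) in Control. Both rows were thus higher in NP with separate intervals, and their division of the gene was nearly the same in both libraries: the P1 row held 64.5% of the transcript FPKM in NP and 66.8% in Control.

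The 2 Hnf4a rows that start at P2, the first of them 40380 bases upstream of the P1 row and the other 130 bases after it, were listed at 0 in both libraries. The upper limits given for them were 0.743 and 0.170 FPKM in NP and 0.764 and 0.189 FPKM in Control. The difference in Hnf4a between the libraries therefore lay in rows other than those of the P2 promoter. Hnf4g, the close relative of Hnf4a known from intestine and kidney, was at 0.000199 FPKM in NP and 0.0907 FPKM in Control, near the floor in both.

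The C/EBP genes differed in opposite directions. Cebpa, the C/EBP factor of the quiescent, metabolically active hepatocyte, was at 118 FPKM (114 to 122) in NP and 153 FPKM (148 to 158) in Control, a Control level 1.30 times that of NP. Cebpb, the C/EBP factor induced in the acute phase response and in regeneration, was at 77.7 FPKM (72.1 to 83.4) in NP and 51.5 FPKM (47.0 to 56.1) in Control, a ratio of 1.51. Neither pair of intervals overlapped. The sum of both genes was 196 FPKM in NP and 205 FPKM in Control, while the level of Cebpb relative to Cebpa was 0.658 in NP and 0.336 in Control, 1.96 times as high in NP. Cebpb lay just under the 1.5-fold line on the log2(FPKM + 1) scale, at 0.584 with the line at 0.585, and just over it by plain FPKM, where 1 of the 9 genes passed upward and 0 downward, against 4.92% and 7.42% of all genes. That call also turned on the scaling: Cebpb passed the line under each of 3 scalings tried.

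Cebpa has a single row in the tables, an uninterrupted row of 2634 bases (chr7:35904312-35906945, mm9) with a read coverage of 346 in NP and 350 in Control. Cebpb has 1 row of 1504 bases (chr2:167514415-167515918, mm9) with a coverage of 226 in NP and 116 in Control. A row of Tmem189 reaches into Cebpb and was at 0 in both libraries. The Tmem189 row that carried FPKM, listed at 0 in NP and at 10.5 FPKM in Control, ends 27.4 kb before Cebpb; its part in the Cebpb value was not tested. Of the other C/EBP genes, Cebpd, also an acute phase factor, was at 7.02 FPKM (5.41 to 8.63) in NP and 5.38 FPKM (3.90 to 6.86) in Control, with overlapping intervals. Cebpg, a dimer partner of other leucine zipper factors, was at 12.3 FPKM (11.2 to 13.4) in NP and 15.6 FPKM (14.3 to 17.0) in Control, with the NP interval below.

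Foxa3 and Foxa2 were higher in NP, and Foxa1 was not separated. Foxa3, the most abundant FOXA gene of this liver and of adult liver in general, was at 35.1 FPKM (32.0 to 38.1) in NP and 26.4 FPKM (23.8 to 29.1) in Control, a ratio of 1.33, all of it in 1 of 2 transcript rows. Foxa2, known for its part in fasting metabolism and bile acid handling, was at 12.7 FPKM (10.8 to 14.5) in NP and 8.50 FPKM (7.06 to 9.94) in Control, a ratio of 1.49. Foxa1, which overlaps with Foxa2 in liver development, was at 6.68 FPKM (5.70 to 7.65) in NP and 7.44 FPKM (6.34 to 8.54) in Control. The sum of the FOXA genes was 54.4 FPKM in NP and 42.4 FPKM in Control. Foxa2 was 1.90 times the level of Foxa1 in NP and 1.14 times in Control, where the intervals of the pair overlapped.

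The higher Foxa2 sum in NP came from the row of the downstream start, whose window is printed above. That row, ENSMUST00000109964.1, was at 4.59 FPKM (3.43 to 5.75) in NP, at a coverage of 13.6, and was listed at 0 in Control with an upper limit of 0.108 FPKM. The row of the upstream start, ENSMUST00000047315.3, began 1021 bases further upstream and was at 6.19 FPKM (4.87 to 7.52) in NP and 7.36 FPKM (5.99 to 8.74) in Control. The upstream row thus held 57.4% of the transcript FPKM in NP and 100% in Control, and on that row alone Foxa2 was not higher in NP. The downstream row is 2070 bases long and the upstream row 2128 bases; how the estimate divided fragments between them was not tested. A row over the whole gene span, which can also take intronic reads, was at 1.89 FPKM (1.38 to 2.40) in NP and 1.14 FPKM (0.706 to 1.56) in Control.

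The sums of Nr5a2 overlapped between the libraries, while its leading row differed. The gene was at 10.8 FPKM (9.39 to 12.1) in NP and 12.6 FPKM (11.2 to 14.1) in Control, with overlapping intervals. The row of the upstream start, ENSMUST00000027649.7, was at 5.56 FPKM (4.59 to 6.54) in NP and 1.61 FPKM (0.980 to 2.24) in Control, a ratio of 3.46. The row that starts 6797 bases downstream, ENSMUST00000168126.1, was at 5.14 FPKM (4.18 to 6.10) in NP and 10.99 FPKM (9.67 to 12.3) in Control, 2.14 times the NP level. Intervals were separate for both rows, in opposite directions. The upstream row held 52.0% of the transcript FPKM in NP and 12.8% in Control, a difference of 39.2 percentage points.

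Differences of this kind were common in the tables. Among 7324 kept genes with at least 2 transcript rows, the leading row differed between the libraries in 13.6%, and a row differed by at least 20 points of share in 24.1%. For genes at 5 to 50 FPKM these shares were 10.5% and 19.7%. Of the 5 members with at least 2 transcript rows, Nr5a2 alone had a different leading row, and Nr5a2 and Foxa2 had a difference of at least 20 points. The upstream row of Nr5a2 is 3699 bases long and the downstream row 3635 bases, and both end at the same base. How the estimate divided fragments between these rows was not tested, so their opposite differences are not separate results. The upstream row had a read coverage of 16.3 in NP and 3.63 in Control. The gene-span row of Nr5a2, 116844 bases long and mostly intron, was at 0.0523 FPKM in NP and 0.0522 FPKM in Control.

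**Figure D3:**
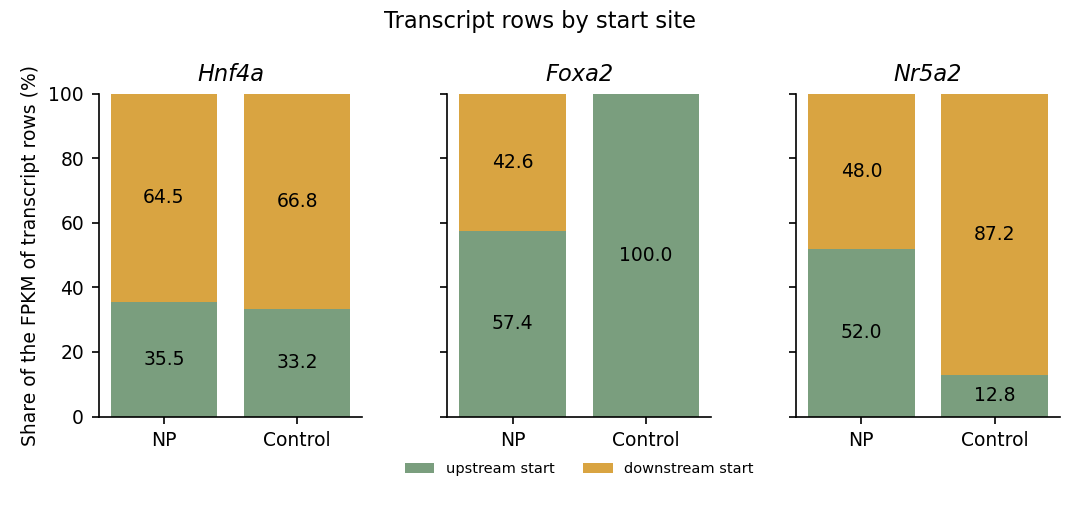
Share of the summed transcript FPKM (percent) held by the row of the upstream and of the downstream start in the NP and the Control library, 1 library each. The division of Hnf4a was alike in both, while the upstream row of Nr5a2 held 52.0% in NP and 12.8% in Control and the downstream row of Foxa2 held 42.6% in NP and 0% in Control.

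**Figure D4:**
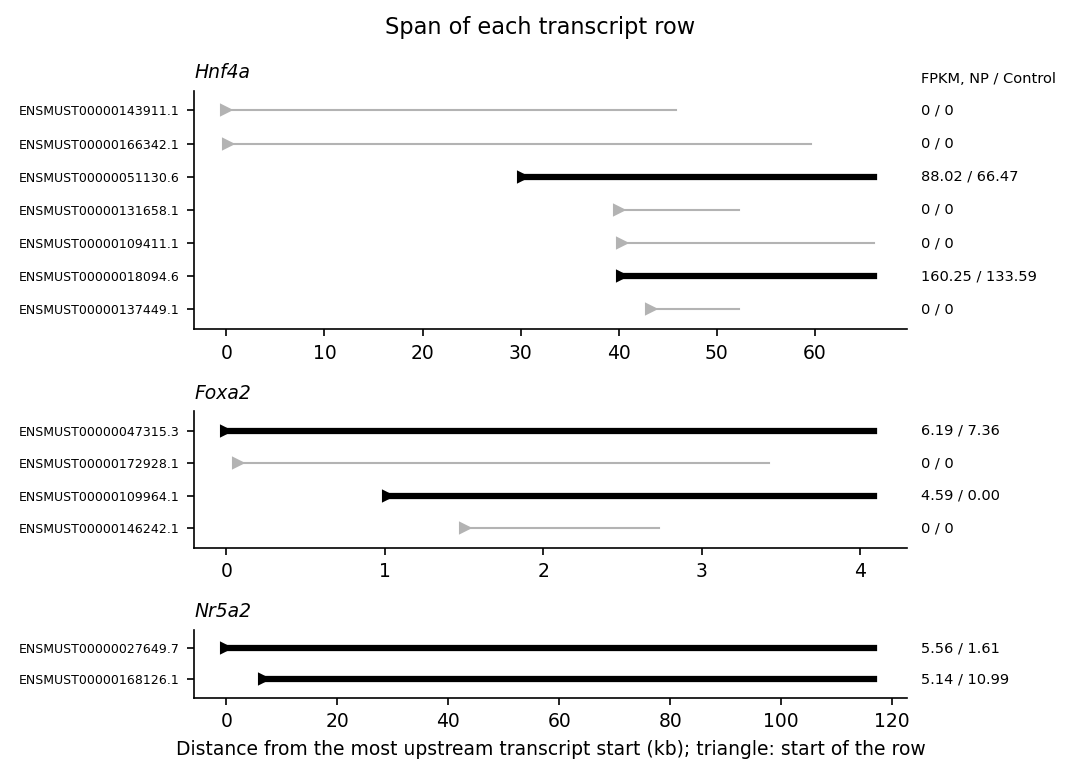
Span of each transcript row of Hnf4a, Foxa2 and Nr5a2, as distance in kb from the gene's most upstream transcript start, with its FPKM in NP and Control at the right. Triangles mark the row's start; black rows carried FPKM in a library and grey rows were at 0 in both, among them both Hnf4a rows of the P2 promoter.

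Prox1 was lower in NP. It was at 12.1 FPKM (10.97 to 13.3) in NP and 16.2 FPKM (14.8 to 17.7) in Control, a Control level 1.34 times that of NP. Nearly all of it lay in 1 transcript row, at 11.8 FPKM (10.6 to 12.98) in NP and 15.9 FPKM (14.4 to 17.3) in Control. Its gene-span row was at 0.329 FPKM (0.276 to 0.383) in NP and 0.367 FPKM (0.307 to 0.428) in Control, with overlapping intervals. Prox1 is also made by lymphatic endothelium: of 5 lymphatic markers, Pdpn and Ccl21a were at 0 in both libraries, and the list summed to 14.3 FPKM in NP and 17.4 FPKM in Control. Mmrn1, a further marker of the 5, was near the floor, at 0.00336 FPKM in NP and 0.0745 FPKM in Control. Flt4 in that list was at 2.31 FPKM (1.93 to 2.70) in NP and 3.53 FPKM (3.02 to 4.04) in Control, and Reln, also a stellate cell gene, made up most of the sum, at 12.02 FPKM in NP and 13.8 FPKM in Control. The part of these cells in the Prox1 value was not tested.

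Onecut1 was the least abundant of the 9, at 2.13 FPKM (1.40 to 2.85) in NP and 1.88 FPKM (1.15 to 2.61) in Control, with overlapping intervals and a read coverage of 6.32 in NP and 4.25 in Control. A long noncoding gene, Gm16551, overlaps it, and Gm16551 transcript FPKM overlapping Onecut1 summed to 2.52 in NP and 1.78 in Control. Onecut2, its close relative with a shared DNA motif, was the higher of the pair, at 5.93 FPKM (5.49 to 6.38) in NP and 6.22 FPKM (5.74 to 6.71) in Control.

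In order of level the 9 genes ran Hnf4a, Cebpa, Cebpb and Foxa3 in both libraries, each neighbour in that order with separate intervals. Foxa2, Prox1, Nr5a2, Foxa1 and Onecut1 followed in NP, where the intervals of Foxa2 and Prox1 and of Prox1 and Nr5a2 overlapped. Prox1, Nr5a2, Foxa2, Foxa1 and Onecut1 followed in Control, where those of Foxa2 and Foxa1 overlapped. Foxa2 thus stood at rank 5 of the 9 in NP and at rank 7 in Control. In NP the intervals of Foxa2 and Nr5a2 overlapped as well, so ranks 5 to 7 were not separated there.

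Other transcription factors of the liver were spread to both sides, as the 9 genes were. Of 33 such genes, 31 passed the filter. Of the 31, 0 were at least 1.5-fold higher and 1 was lower, against 3.59% and 5.33% of all genes kept. The median ratio of the 31 was -0.03 on the log2(FPKM + 1) scale. The NP interval was above for 4 of the 31 and below for 6, against 7.72% and 9.58% of all genes kept. Just under the filter, Cux2, a cut homeodomain factor that is female-biased in mouse liver, was at 1.78 FPKM (1.31 to 2.25) in NP and 0.141 FPKM (0.0168 to 0.266) in Control, a ratio of 12.6 with separate intervals. It was in the list of 33 and was not among the 31. Nr0b2, which encodes SHP, a repressor of HNF4A and LRH-1, was at 74.3 FPKM (68.2 to 80.4) in NP and 62.1 FPKM (56.4 to 67.7) in Control, with the NP interval above.

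Genes known to depend on these factors in mouse liver are described by lists that overlap one another. Of 24 HNF4A targets kept, 0 were at least 1.5-fold higher and 1 was lower, against 3.59% and 5.33% of all genes kept. The NP interval was above for 5 and below for 4, and the median ratio was 0.01. Most of these targets were above a mean of 50 FPKM, where 19.2% of all genes had an NP interval above and 14.9% below. Apob, listed as well, had rows of failed status. The target lower by 1.5-fold was Cyp7a1, which catalyses the first step of the classic bile acid pathway and is a target of LRH-1 as well. Cyp7a1 was at 13.7 FPKM (12.4 to 14.9) in NP and 35.5 FPKM (33.1 to 37.9) in Control. Apoa1, the main protein of high-density lipoprotein, was at 9479 FPKM (9083 to 9876) in NP and 7597 FPKM (7278 to 7916) in Control, and Ttr, the thyroxine carrier transthyretin, at 2986 FPKM (2860 to 3111) in NP and 2476 FPKM (2371 to 2581) in Control. Of 9 LRH-1 targets, 0 were higher by 1.5-fold and 2 were lower, Cyp7a1 and Abcg8, against 3.59% and 5.33% of all genes kept. Abcg8, a sterol exporter subunit, was at 17.7 FPKM (16.1 to 19.2) in NP and 27.9 FPKM (25.8 to 30.0) in Control. The NP interval was above for 3 of the 9 and below for 3, against 7.72% and 9.58% of all genes kept. Among the 9, Cyp8b1, Nr0b2, Scarb1 and Apom were above a mean of 50 FPKM, where these shares were 19.2% and 14.9%. The rest were between 5 and 50 FPKM, where the shares were 7.06% and 9.96%. The list median was 0.06.

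The 10 C/EBP targets had genes past the line on both sides. Of the 10, 2 were at least 1.5-fold higher and 2 lower, against 3.59% and 5.33% of all genes kept. The NP interval was above for 6 and below for 2, against 19.2% and 14.9% of genes above a mean of 50 FPKM. The median was 0.23. Hp, the haemoglobin-binding haptoglobin of the acute phase, was at 3210 FPKM (3074 to 3346) in NP and 1631 FPKM (1559 to 1702) in Control, and Orm1, an acute phase orosomucoid with near-identical copies that can share its reads, at 499 FPKM (471 to 526) in NP and 326 FPKM (306 to 346) in Control. Gys2, the liver glycogen synthase, was at 44.6 FPKM (41.5 to 47.8) in NP and 68.6 FPKM (64.2 to 73.0) in Control, and Ass1, of the urea cycle, at 41.0 FPKM (37.5 to 44.5) in NP and 67.5 FPKM (62.4 to 72.5) in Control. Of 7 FOXA targets kept, 0 passed 1.5-fold in either direction, 5 had an NP interval above and 0 below, and the median was 0.27. All 7 were above a mean of 50 FPKM, where 19.2% of all genes had an NP interval above and 14.9% below. Among the 5, Alb, Tat and G6pc are also in the C/EBP list and Ttr is in the HNF4A list. The 7 hepatocyte markers kept, which include Alb and Ttr, had the same counts, 5 above and 0 below. Alb, which encodes albumin and is in the C/EBP and FOXA lists, was at 30741 FPKM (29471 to 32011) in NP and 21660 FPKM (20764 to 22555) in Control.

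**Figure D5:**
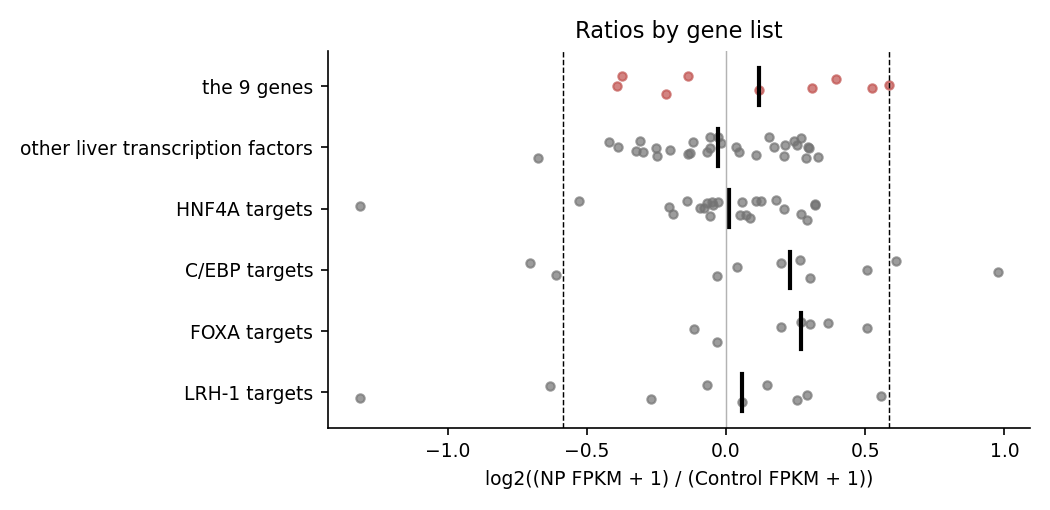
Ratio of the NP to the Control library on the log2(FPKM + 1) scale for each gene kept in 6 lists (points) and the list median (bar), with dashed lines at 1.5-fold. The lists share genes. Of the 6 drawn, only the C/EBP list has points beyond both dashed lines. Over all genes kept, 3.59% were at or beyond the upper line and 5.33% at or beyond the lower.

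The liver label was checked on 7 hepatocyte markers, all kept, which summed to 55203 FPKM in NP and 42777 FPKM in Control. Fetal and progenitor genes were near the floor, with 2 of 14 passing the filter, Sox9 and Spp1; H19, a fetal noncoding RNA, was at 0.0544 FPKM in NP and 1.43 FPKM (0.520 to 2.34) in Control, and Afp, the fetal counterpart of albumin, was at 0.377 FPKM (0.288 to 0.466) in NP and 1.43 FPKM (0.894 to 1.96) in Control. Of 6 pancreas markers matched, 3 (Cela2a, Ins2 and Pdx1) were at 0 in both libraries, and the list summed to 0.194 FPKM in NP and 8.28 FPKM in Control. The difference was in enzyme genes of the exocrine pancreas, with Ctrb1 at 0.130 FPKM in NP and 4.92 FPKM (3.19 to 6.65) in Control, Pnlip at 0 in NP and 2.35 FPKM (1.47 to 3.22) in Control and Cpa1 at 0.0649 FPKM in NP and 1.019 FPKM (0.4496 to 1.59) in Control. Nr5a2, Foxa2, Onecut1 and Prox1 are also made in pancreas, and the part of such RNA in their values was not tested. Of 7 cholangiocyte markers 3 passed the filter, and the list summed to 19.9 FPKM in NP and 23.7 FPKM in Control. Clec4f, a Kupffer cell lectin, was at 7.63 FPKM (5.28 to 9.99) in NP and 18.4 FPKM (14.6 to 22.3) in Control. Markers of sinusoidal endothelium, Kupffer cells and stellate cells summed to 76.9, 17.4 and 77.2 FPKM in NP and to 97.4, 33.4 and 90.6 FPKM in Control.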

How the data were processed

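One liver RNA-seq library per group (NP and Control) was analysed. The authors deposited FPKM values with a 95% interval, row length and status, per the file headers. They also deposited read coverage, a signal not scaled to library size, per the file headers. Per the submitters' processing notes, the tools were TopHat2 2.1.0 and Cufflinks 2.2.1.0 and the build mm9; settings are not listed there. Each table has 119289 rows, 87656 of transcripts and 31633 of gene spans.

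FPKM were summed by gene identifier. The filter required a mean of 1 FPKM or more, an OK status, a row of at least 300 bases and no small RNA name. Rows at 0 entered the intervals with no width, and covariance between rows was left out. Where 2 identifiers shared a symbol, the more abundant was used. Ratios had a pseudocount of 1, and 1.5-fold was the size rule; with 1 library per group no test was made. Genes named were the 9 members, their rows of at least 1 FPKM, fixed relatives and liver genes, and list members past 1.5-fold, up to 3 at each end; other names were added after the values were seen. Members and lists were chosen with earlier results of these data known. Start positions count from 1. Strand and the link between rows and promoter windows came from GENCODE M21. Calculations were checked on simulated data. Python 3.11.15, pandas 2.3.3, numpy 2.4.6 and matplotlib 3.10.9 were used. Some genes that the naming rule covers are not reported here.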

Additional observations from a re-analysis of the deposited data

How the results depend on the processing

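Of 146 values recomputed under alternatives for the pseudocount, filter, scaling, rows and status, 10 moved, a count by more than 1.5 times or a ratio by more than its interval. The count of genes at least 1.5-fold higher in NP, 0 as reported, was 1 (Cebpb) with a pseudocount of 0.1, with plain FPKM and with each of 3 scalings (to a median ratio of 1, the same upper quartile or the same sum). With the leading transcript row only, the count at least 1.5-fold lower was 1 (Nr5a2, log2 ratio -0.97), the ratio of Foxa2 was -0.22 and the median of the 9 genes -0.083, since the row is then the upstream one of Foxa2 and the downstream one of Nr5a2. With transcript rows only, the count with an NP interval below Control was 1, because the single row of Cebpa is left out. Among 88 ratios of single genes, 1 changed sign, that of Foxa2. The differences in transcript share of Hnf4a, Foxa2 and Nr5a2 kept their size under both alternatives, at 2.197 to 2.23, 36.2 to 42.6 and 39.0 to 39.4 points. With a mean of at least 5 FPKM, Onecut1 drops out. Leaving out a replicate was likewise not possible. No paired analysis was possible because each group has 1 library. The backgrounds by level were chosen after seeing the data. Low rows, such as those of Onecut1, are limited by coverage.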
